A study of Mus musculus with 12 samples.

Results

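The 10 genes described here encode the enzymes that make serine from glucose carbon and pass its one-carbon unit to folate: Phgdh, Psat1, Psph, Shmt1, Shmt2, Mthfd1, Mthfd1l, Mthfd2, Mthfd2l and Aldh1l2. They were chosen by name from this pathway, with earlier results of these data known. All 10 were among the 28689 genes of the deposited expression table. RNA sequencing compared cultured mouse lung endothelial cells (MLECs) of control mice (CTR) with those of mice lacking the transcription factors Sp1 and Sp3 in the endothelium (dKO), with 6 libraries in each group. CTR mice were VE-CAD-CreERT2-/Sp1 fl/fl/Sp3 fl/fl littermates of the dKO mice, which were VE-CAD-CreERT2+/Sp1 fl/fl/Sp3 fl/fl, so both groups carried the floxed alleles. Both also received tamoxifen on 5 consecutive days. The Cre recombinase was driven by the VE-Cadherin promoter and was activated by tamoxifen. The mice were male and 6 to 8 weeks old, and MLECs were selected with beads against CD31 and then ICAM-2 and grown for up to 3 passages. The number of mice behind a library is not given, so a p-value measures the spread between libraries, which may be partly technical.

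Phgdh, Psat1 and Psph carry out the steps from 3-phosphoglycerate, a glycolytic intermediate, to serine. Serine hydroxymethyltransferase, with a cytosolic form (Shmt1) and a mitochondrial form (Shmt2), splits serine into glycine and a one-carbon unit bound to tetrahydrofolate. In mitochondria Mthfd2 or Mthfd2l, Mthfd1l and Aldh1l2 oxidise that unit to formate or carbon dioxide, while cytosolic Mthfd1 takes formate back for the synthesis of purines, thymidylate and methionine.

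The knockout libraries are named in the table after tamoxifen and were assigned to dKO through the sample labels. Sp1 lay between 19.4 and 23.7 FPKM (a count of fragments corrected for the length of the gene and the size of the library) in CTR and between 8.42 and 12.1 in dKO, without overlap. Sp3 lay between 24.2 and 31.1 FPKM in CTR and between 22.5 and 26.9 in dKO, and its log2 fold change of −0.14 did not pass the test (adjusted p = 0.0902, limma). A library held between 15523054 and 17938286 fragments. In CTR and dKO libraries together, 6 of 6 retinal marker genes were under 1 FPKM throughout. This check was made because the extraction text of the labels also speaks of retinas. All 8 endothelial markers reached the level needed for testing, as did all 6 macrophage and all 5 mesothelial markers. The endothelial count therefore cannot tell which cells made up the libraries.

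All 10 enzymes were lower in dKO than in CTR at an adjusted p under 0.05, against 32.6% of all 12467 genes tested that were called lower. Their median log2 fold change was −1.40, and the median over all tested genes was −0.10. For 5 of the 10, Psat1, Psph, Shmt2, Mthfd2 and Aldh1l2, the fall also exceeded 1.5 on the log2 scale, against 0.553% of all tested genes. In 8 of the 10, all except Shmt1 and Mthfd1, every dKO library lay below every CTR library, against 16.1% of all tested genes. Because the enzymes were chosen with earlier results of these data known, these shares are a description and not a test. The whole table was unevenly split, with 4065 genes called lower and 2549 called higher, that is 38.5% of the calls higher. After scaling the libraries to a common median gene, 3012 genes were lower and 3213 higher, or 51.6% of the calls higher, and 9 of the 10 enzymes were still called lower. Shmt1 was the exception. In these bulk libraries, fewer cells of a type and less RNA per cell cannot be told apart.

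**Figure D1:**
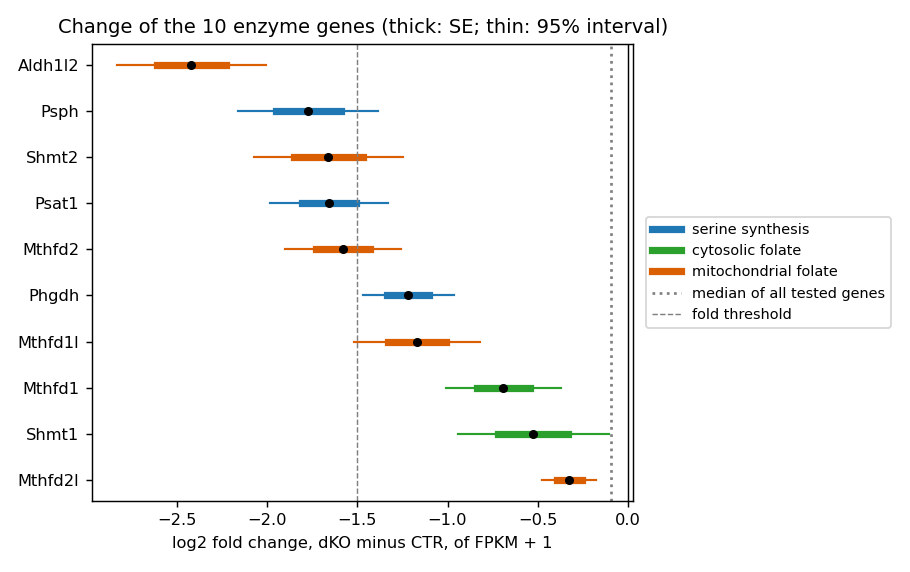
Log2 fold change (dKO minus CTR, of FPKM + 1) of the 10 enzyme genes, coloured by role, with the SE (thick bar) and the 95% interval (thin bar) of the limma fit on 6 libraries a group; the dotted line is the median of all tested genes (−0.10) and the dashed line the fold threshold. Aldh1l2 lies farthest to the left at −2.42, and Mthfd2l and the cytosolic Shmt1 and Mthfd1 lie nearest to 0.

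Sp1 and Sp3 bind G-rich promoter elements, of which the GC box is the classical form. Windows were searched for GGGCGG and, to cover the opposite strand, for its complement CCGCCC. RefSeq promoter windows (GRCm38.p6, 250 bases before to 50 after the start) were found for 9 of the 10 enzymes, with 2 windows for Psat1 and none for Aldh1l2. A GC box occurred in a window of 6 of the 9 genes, against 35.7% of 32851 RefSeq windows. These shares are not like for like. Psat1 was counted once for its 2 windows, and the RefSeq windows were counted singly, whether or not their genes were expressed here. Shmt1 held 4, starting 193, 76, 32 and 27 bases before the gene's start, the last 2 sharing a base. Psph held 3, one of the Psat1 windows 2, and Mthfd1, Mthfd1l and Mthfd2l 1 each, that of Mthfd2l lying after the start. Phgdh, Shmt2 and Mthfd2 held none. The letters TGATGNAA, or on the opposite strand TTNCATCA, of a composite element known from promoters of the amino-acid response, occurred in none of the 9 genes and in 3.97% of all windows. The 200 bases before the start are shown for the paired cytosolic and mitochondrial enzymes Shmt1 and Shmt2, and for Phgdh and Mthfd2, to set a window with GC boxes (in capitals) beside windows without. Each lies on the minus strand and is written 5′ to 3′ along the gene, at chr11:60811266-60811465 for Shmt1, chr10:127522445-127522644 for Shmt2, chr3:98339970-98340169 for Phgdh and chr6:83317605-83317804 for Mthfd2.
Shmt1: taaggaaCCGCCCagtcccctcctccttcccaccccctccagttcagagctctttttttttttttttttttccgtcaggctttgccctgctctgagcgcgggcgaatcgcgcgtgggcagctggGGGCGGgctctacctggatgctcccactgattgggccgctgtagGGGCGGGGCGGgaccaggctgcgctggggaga
Shmt2: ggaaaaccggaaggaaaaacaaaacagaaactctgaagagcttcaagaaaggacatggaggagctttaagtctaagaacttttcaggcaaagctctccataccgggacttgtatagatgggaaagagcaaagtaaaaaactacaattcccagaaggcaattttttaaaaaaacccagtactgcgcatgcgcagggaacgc
Phgdh: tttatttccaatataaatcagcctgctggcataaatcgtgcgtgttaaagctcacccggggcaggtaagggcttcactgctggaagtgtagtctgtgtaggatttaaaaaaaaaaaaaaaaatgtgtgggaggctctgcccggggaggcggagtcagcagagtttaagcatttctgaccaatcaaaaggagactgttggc
Mthfd2: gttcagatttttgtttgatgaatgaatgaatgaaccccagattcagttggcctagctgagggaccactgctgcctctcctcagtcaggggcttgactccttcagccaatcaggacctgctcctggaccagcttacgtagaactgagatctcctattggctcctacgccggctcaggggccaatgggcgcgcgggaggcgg
In the order of the number of boxes, the log2 fold changes were −0.52 for Shmt1 (4), −1.77 for Psph (3), −1.66 for Psat1 (2 in one window), −0.69 for Mthfd1, −1.17 for Mthfd1l and −0.33 for Mthfd2l (1 each), and −1.22 for Phgdh, −1.66 for Shmt2 and −1.58 for Mthfd2 (none). These letters describe the windows alone, and binding was not measured here.

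Of the 3 genes of serine synthesis, Phgdh and Psat1 were among the most highly expressed of the set. Psph, at a CTR mean of 21.6 FPKM, was not. Phgdh, the first and committed enzyme (ENSMUSG00000053398, chromosome 3, 98220484 to 98255047, GRCm39), had a lowest, median and highest level of 94.6, 136 and 165 FPKM in CTR. In dKO these levels were 52.4, 55.6 and 61.0 FPKM. The groups did not overlap, and the dKO libraries lay within a narrow band. Phgdh fell by 1.22 ± 0.12 (SE) on the log2(FPKM + 1) scale (adjusted p = 5.58e-06, limma), to 41.9% of the CTR mean.

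Phgdh has 12 annotated pseudogenes with at least 95% identity to its transcript over 150 bases or more, 5 of them with a row in the table, and fragments could be shared with them. The most expressed of these, Gm7901 (98.6% identity over 1305 bases), lay between 4.91 and 9.02 FPKM in CTR and between 2.64 and 3.34 in dKO. No such pseudogene was found for the other 9 enzymes.

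Psat1, the aminotransferase of the next step (ENSMUSG00000024640, chromosome 19, 15882039 to 15924701), ranged from 60.2 over a median of 92.9 to 124 FPKM in CTR. In dKO it ranged from 23.6 over 27.6 to 32.4 FPKM. All dKO libraries were below all CTR libraries. The log2 fold change was −1.66 ± 0.15 (adjusted p = 3.86e-06, limma), which left 30.3% of the CTR mean.

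Psph, the phosphatase that releases serine (ENSMUSG00000029446, chromosome 5, 129841925 to 129864513), was at 11.5, 21.8 and 32.4 FPKM as the lowest, median and highest in CTR. Its levels in dKO were 4.53, 5.38 and 5.95 FPKM. The CTR libraries differed 2.81-fold among themselves and the dKO libraries 1.31-fold, without overlap between groups. Psph fell by 1.77 ± 0.18 (adjusted p = 8.22e-06, limma), to 24.8% of the CTR mean. It shares 465 transcribed bases with Cct6a, a chaperonin subunit gene on the opposite strand that lay between 30.8 and 52.2 FPKM in CTR and between 29.6 and 61.5 in dKO. Whether the counting used strand is not given, and without it fragments of these shared bases cannot be told apart.

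**Figure D2:**
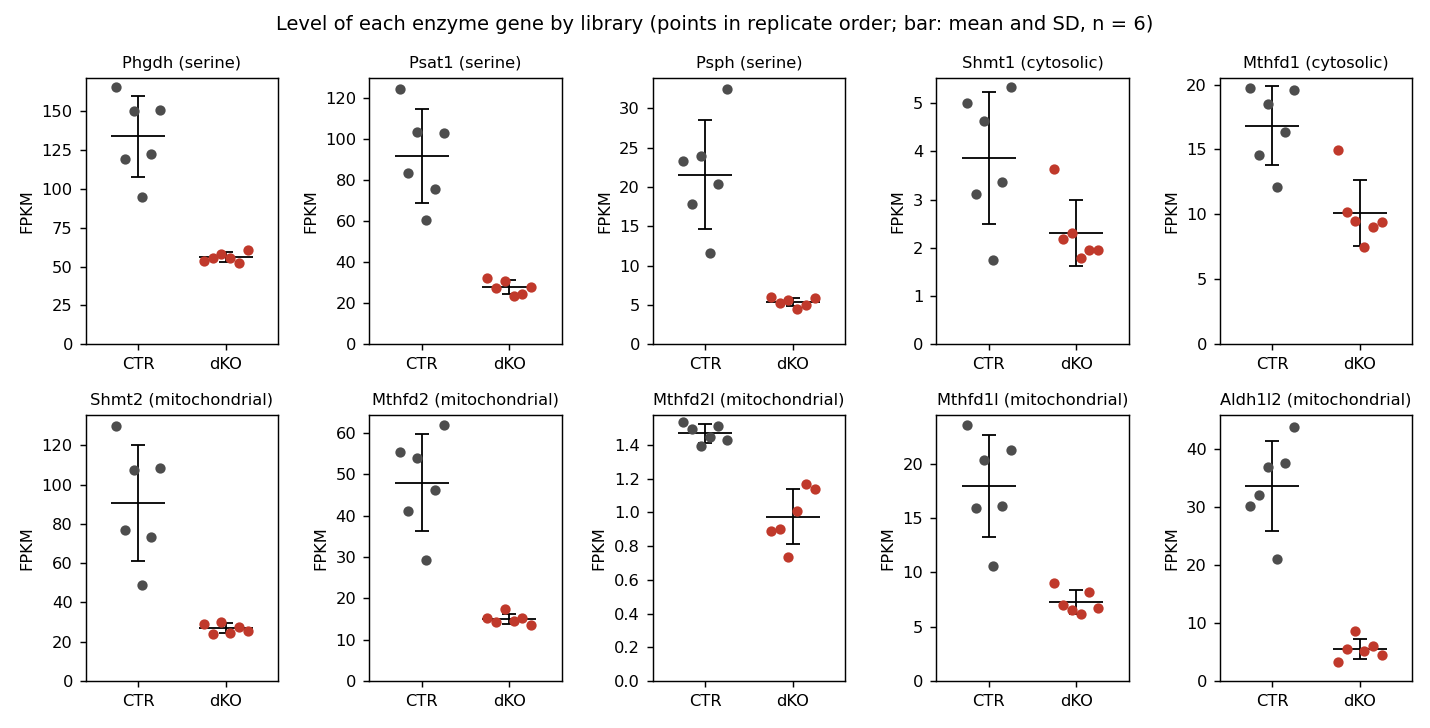
FPKM of each of the 10 enzyme genes (y axes start at 0) in the 6 CTR (grey) and 6 dKO (red) libraries, in replicate order within a group, with the mean and SD of 6. In 8 panels the red points lie below all grey points; in Shmt1 and Mthfd1 dKO replicate 1 stands above the other dKO libraries, at 3.63 and 15.0 FPKM, and the groups overlap.

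Of the folate enzymes, the mitochondrial Shmt2 and Mthfd1l fell further than their cytosolic counterparts, as tested on their ratios after the single genes. Shmt2, the mitochondrial serine hydroxymethyltransferase (ENSMUSG00000025403, chromosome 10, 127352266 to 127358323), was at 49.0, 92.1 and 130 FPKM as the lowest, median and highest in CTR. In dKO it was at 23.9, 26.5 and 30.2 FPKM. There was no overlap, and the spread among CTR libraries was 2.65-fold against 1.26-fold among dKO libraries. Shmt2 fell by 1.66 ± 0.19 (adjusted p = 1.98e-05, limma), to 29.5% of the CTR mean. It shares 729 transcribed bases with Ndufa4l2 on the opposite strand, which lay between 9.23 and 14.3 FPKM in CTR and between 6.24 and 22.1 in dKO.

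Shmt1, the cytosolic form (ENSMUSG00000020534, chromosome 11, 60661185 to 60708167), was expressed at a small fraction of the level of Shmt2. It was at 1.74, 4.0 and 5.33 FPKM as the lowest, median and highest in CTR, and at 1.78, 2.07 and 3.63 FPKM in dKO. CTR replicate 4 was below all dKO libraries, and dKO replicate 1 was above 3 of the CTR libraries, so the groups overlapped widely. The log2 fold change was −0.52 ± 0.19 (adjusted p = 0.0361, limma; 95% interval −0.94 to −0.11), and the exact two-sided permutation test gave p = 0.0411. Shmt1 overlaps Top3a on the same strand and shares 184 transcribed bases with Smcr8 on the opposite strand. Smcr8 lay between 9.34 and 13.7 FPKM in CTR and between 9.66 and 14.8 in dKO, above Shmt1 in both groups. The part of these shared bases in the level of Shmt1 was not tested, nor was their part in its ratio to Shmt2. The values of Shmt1 rested on 118 to 352 fragments a library in CTR and 124 to 219 in dKO. The call was lost under median-of-ratios scaling (adjusted p = 0.0606), quantile normalization (0.0625) and without the filter on low values (0.0772). It was also lost when any of 8 of the 12 libraries was left out, with an adjusted p between 0.00245 and 0.0784 over the 12 fits.

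Mthfd2, the dehydrogenase and cyclohydrolase of the mitochondrial branch (ENSMUSG00000005667, chromosome 6, 83282673 to 83302890), ranged from 29.2 over a median of 50.1 to 61.9 FPKM in CTR. In dKO it ranged from 13.6 over 14.8 to 17.3 FPKM, clear of all CTR libraries. The fall was 1.58 ± 0.15 (adjusted p = 4.47e-06, limma), to 31.3% of the CTR mean. It was close to the fold threshold of 1.5. Under median-of-ratios scaling Mthfd2 fell by 1.49, short of that threshold, and it also fell just short without CTR replicate 6.

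Mthfd2l, its paralogue (ENSMUSG00000029376, chromosome 5, 91078920 to 91169231), was the least expressed of the 10. It was at 1.39, 1.47 and 1.54 FPKM as the lowest, median and highest in CTR, and at 0.737, 0.955 and 1.17 FPKM in dKO. The CTR libraries lay closer together for this gene than for any other of the set, with a ratio of highest to lowest of 1.10, and all were above the dKO libraries. The log2 fold change was −0.33 ± 0.07 (adjusted p = 0.00179, limma). At levels near 1 FPKM the added 1 shrinks the change: it was −0.60 with a pseudocount of 0.01 and −0.61 by limma-voom on the recovered fragments, of which there were 86 to 178 a library.

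Mthfd1l, the mitochondrial formate-producing synthetase (ENSMUSG00000040675, chromosome 10, 3922870 to 4117081), was at 10.6, 18.3 and 23.6 FPKM as the lowest, median and highest in CTR. In dKO it was at 6.17, 6.86 and 9.05 FPKM, below every CTR library. Mthfd1l fell by 1.17 ± 0.16 (adjusted p = 7.56e-05, limma), to 40.4% of the CTR mean.

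Mthfd1, the cytosolic trifunctional enzyme (ENSMUSG00000021048, chromosome 12, 76301984 to 76366588), was at 12.1, 17.4 and 19.7 FPKM in CTR. In dKO it was at 7.50, 9.46 and 15.0 FPKM. Of the dKO libraries, 5 were below all CTR libraries, and replicate 1 lay within the CTR range. The log2 fold change was −0.69 ± 0.15 (adjusted p = 0.00182, limma), which left 60.1% of the CTR mean. Without dKO replicate 1 it was −0.80 (adjusted p = 0.000236, limma).

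Aldh1l2, the mitochondrial formyltetrahydrofolate dehydrogenase (ENSMUSG00000020256, chromosome 10, 83323314 to 83370005), changed most of the 10. It was at 21.0, 34.4 and 43.7 FPKM as the lowest, median and highest in CTR and at 3.25, 5.39 and 8.51 FPKM in dKO. The highest dKO library was well below the lowest CTR library. Aldh1l2 fell by 2.42 ± 0.19 (adjusted p = 1.47e-06, limma), to 16.4% of the CTR mean. Unlike most of the set, it varied more among dKO libraries (2.62-fold) than among CTR libraries (2.08-fold). Its transcripts share 1056 bases with Nopchap1 on the opposite strand, which stayed at or below 0.586 FPKM in every library.

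The order of the genes by FPKM, a level corrected for gene length, differed between groups. In CTR the means were 134 for Phgdh, 91.5 for Psat1, 90.8 for Shmt2, 48.0 for Mthfd2, 33.5 for Aldh1l2, 21.6 for Psph, 18.0 for Mthfd1l, 16.8 for Mthfd1, 3.86 for Shmt1 and 1.47 for Mthfd2l, in FPKM. From Phgdh down to Mthfd1 the CTR ranges of neighbours overlapped, and only the steps down to Shmt1 and to Mthfd2l were without overlap. In dKO the first 4 places and the last 2 were held by the same genes. Mthfd1, at a mean of 10.1 FPKM, then stood above Mthfd1l (7.26), Aldh1l2 (5.5) and Psph (5.35). Among Mthfd1, Mthfd1l, Aldh1l2 and Psph the dKO ranges of neighbours overlapped, and the mean of Mthfd1 includes dKO replicate 1 at 15.0 FPKM. Psat1 overlapped with Shmt2 and Mthfd2 with Mthfd1 as well. The steps in dKO from Phgdh to Psat1, from Shmt2 to Mthfd2, and down to Shmt1 and to Mthfd2l were without overlap.

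To compare the compartments within each library, the ratio of paralogous enzymes was taken, which no library scaling can change. The ratio of Shmt2 to Shmt1 lay between 20.4 and 28.2 in CTR and between 8.03 and 13.9 in dKO, without overlap. The difference in log2 ratio, dKO minus CTR, was −1.0 (exact two-sided permutation test, p = 0.00216, the smallest that 6 against 6 libraries allow). The ratio of Mthfd1l to Mthfd1 lay between 0.872 and 1.2 in CTR and between 0.605 and 0.899 in dKO, so that the highest dKO library reached into the CTR range. The log2 difference was −0.53 (exact permutation test, p = 0.00433). The ratio of the mitochondrial paralogues Mthfd2 and Mthfd2l lay between 20.2 and 43.2 in CTR and between 11.9 and 23.5 in dKO, again with a small overlap, and the log2 difference was −1.03 (exact permutation test, p = 0.00433). All 3 pairs compared had an adjusted p of 0.00433 over the 3. The direction was the same in every alternative tried for these ratios, including each left-out library.

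**Figure D3:**
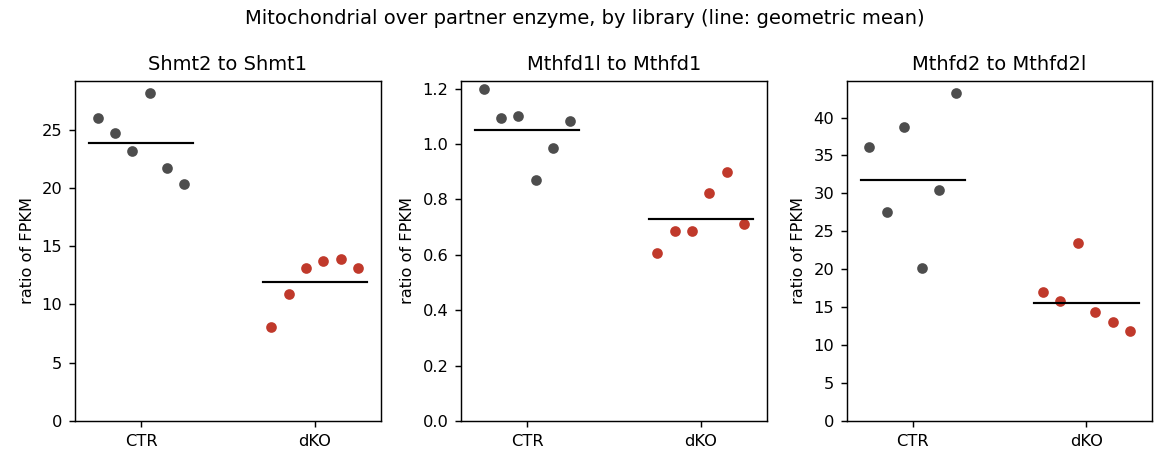
Ratio of the FPKM of paired enzymes in each CTR (grey) and dKO (red) library, with the geometric mean as a line; y axes start at 0. The Shmt2 to Shmt1 ratio fell from a geometric mean of 23.9 to 11.9 with no overlap, while single libraries overlap in the ratios Mthfd1l to Mthfd1 and Mthfd2 to Mthfd2l.

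Among the CTR libraries most of the enzymes were low and high together. CTR replicate 4 was the lowest CTR library for 9 of the 10 genes, all except Mthfd2l, and the highest was CTR replicate 1 for 6 genes and replicate 6 for 4. The summed level of the 10 genes was 292 FPKM in CTR replicate 4 and between 405 and 579 in the other CTR libraries, and it lay between 144 and 169 FPKM in dKO. Even CTR replicate 4 was thus above every dKO library in the sum. The SD of log2(FPKM + 1) was larger in CTR than in dKO for 7 of the 10 genes and for 49.1% of all tested genes. For Shmt2 it was 0.50 in CTR and 0.13 in dKO. Without CTR replicate 4, and likewise without dKO replicate 1, all 10 genes were called lower and 5 passed both thresholds. Without CTR replicate 4 Shmt1 had a log2 fold change of −0.68 (adjusted p = 0.00245, limma).

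CTR replicate 4 was also the lowest library in the summed level of 10 proliferation genes. This sum was 95.6 FPKM there, between 116 and 302 in the other CTR libraries and between 104 and 157 in dKO. CTR replicate 4 was therefore below every dKO library in the proliferation sum and above every dKO library in the enzyme sum. The single proliferation genes differed. In CTR replicate 4, Pcna, Rrm2, Mcm2, Mcm5 and Tk1 were below every dKO library. Mki67, Top2a, Cdk1 and Ccnb1 lay within the dKO range, and Ccna2 was above it. Of the 10 proliferation genes 4 were called lower in dKO, a share near the 32.6% of all tested genes, and 0 higher, and their median log2 fold change was −0.49.

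**Figure D4:**
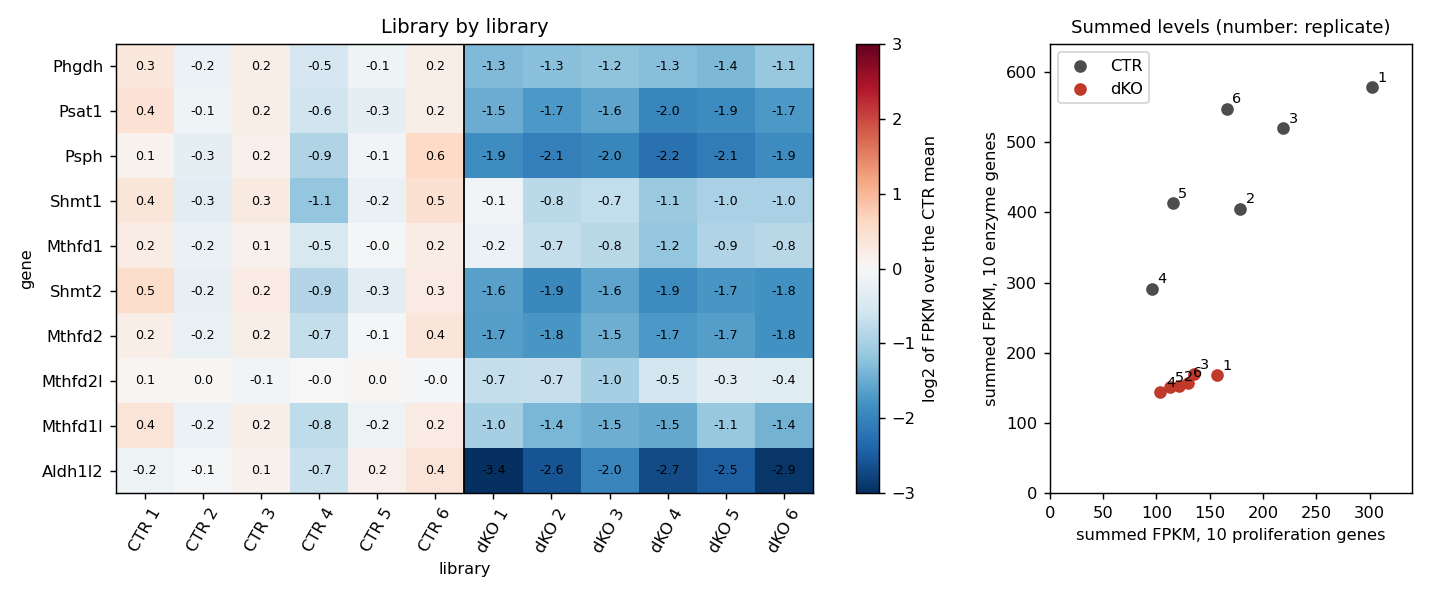
Left, log2 of each library's FPKM over the CTR mean for the 10 enzyme genes (colours end at 3 on either side); right, the summed FPKM of the 10 enzyme genes against that of 10 proliferation genes in each library, numbered by replicate. CTR replicate 4 is the CTR column with the lowest values, at 292 FPKM in the enzyme sum and 95.6 in the proliferation sum, and all dKO libraries lie at or below 169 FPKM in the enzyme sum.

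Markers of several cell types, endothelial cells included, differed between the groups as well. Of all tested genes, 20.4% were called higher in dKO and 32.6% lower. All 8 endothelial markers were higher in dKO, with a summed level between 158 and 238 FPKM in CTR and between 291 and 403 in dKO. All 6 macrophage markers were higher, with sums between 665 and 1190 FPKM in CTR and between 2009 and 4348 in dKO, and so were 4 of 5 mesothelial markers, with sums between 21.4 and 30.6 FPKM and between 58.1 and 135. Of 5 fibroblast markers tested, 3 collagen genes were lower and Dcn was higher, and the sum lay between 2122 and 2689 FPKM in CTR and between 820 and 1645 in dKO. Of 6 smooth muscle and pericyte markers 2 were higher and 4 did not pass. Their sums lay between 496 and 1422 FPKM in CTR and between 454 and 843 in dKO. Of 6 lung epithelial markers 1 was higher and 5 did not pass, with sums between 88.2 and 499 FPKM and between 153 and 360. These 2 small counts are near the 20.4% of all tested genes called higher. None of the markers of these lists was at 0 in all libraries. The part of these cells in the levels of the 10 enzymes was not tested.

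The other genes of the pathway moved less and not in one direction. Of 56 genes listed for folate uptake and use, glycine cleavage, the methionine cycle, purine synthesis and serine transport, 53 had a row in the table and 42 were tested. In dKO 24 of the 42 were lower (against 32.6% of all tested genes), 6 were higher (against 20.4%) and 12 did not pass, and the median log2 fold change was −0.28. After median-of-ratios scaling 18 were lower and 7 higher, against 24.2% and 25.8% of all tested genes. A single gene of the 42, Slc1a5, fell past the fold threshold.

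Of 5 genes tested for folate uptake and activation, 2 were lower and 1 was higher (median −0.17), shares near those of all tested genes (32.6% and 20.4%). The reduced folate carrier Slc19a1 fell from a median of 6.06 to 2.55 FPKM, by 0.90 ± 0.12 on the log2 scale (adjusted p = 5.06e-05, limma), with no overlap. Fpgs, which adds the glutamate tail that retains folate in the cell, fell by 0.57 (adjusted p = 0.000587, limma), and Ggh, which removes it, rose by 0.66 (adjusted p = 0.00119, limma).

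Of 9 other folate enzymes tested, 6 were lower and 0 higher (median −0.41), against 32.6% and 20.4% of all tested genes. Methionine synthase, Mtr, was at 5.68 to 8.28 FPKM in CTR and at 2.86 to 4.50 in dKO, a log2 fold change of −0.74 without overlap (adjusted p = 8.77e-05, limma). Its reductase Mtrr fell by 0.81 (adjusted p = 0.00258, limma). Thymidylate synthase, Tyms, fell by 0.57 (adjusted p = 0.024, limma). The call of Tyms was lost without the filter on low values (adjusted p = 0.0536, limma), without CTR replicate 3 (0.0524) and without dKO replicate 4 (0.0505).

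Of 5 genes tested for glycine cleavage and choline-derived one-carbon units, 3 were lower and 0 higher (median −0.25). The shares of all tested genes were 32.6% and 20.4%. The mitochondrial sarcosine dehydrogenase Sardh went from a median of 12.5 to 4.89 FPKM, a log2 fold change of −1.25 ± 0.14 without overlap (adjusted p = 1.71e-05, limma). Gcat, which works in threonine breakdown, fell by 0.50, and Dld, a subunit shared by several mitochondrial complexes, by 0.25. Under median-of-ratios scaling Dld missed the threshold (adjusted p = 0.0614, limma). Gldc, the decarboxylase of the glycine cleavage system, stayed below 1 FPKM in every library and was not tested.

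Of 5 methionine cycle genes tested, 2 were lower and 1 was higher (median 0.02), again near the 32.6% and 20.4% of all tested genes. Ahcy, which splits adenosylhomocysteine, fell by 0.60 without overlap (adjusted p = 0.000459, limma). Its relative Ahcyl1 fell by 0.26, a call lost under median-of-ratios scaling (adjusted p = 0.0713, limma), and Ahcyl2 rose by 0.30. Mat2a, which makes adenosylmethionine, had a log2 fold change of 0.18 (adjusted p = 0.214, limma).

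Of 8 purine synthesis genes, 6 were lower and 1, Impdh1, named after its values were seen, was higher (median −0.30). Of all tested genes 32.6% were lower and 20.4% higher. Adsl fell by 0.83, Pfas by 0.78 and Ppat, which catalyses the committed step, by 0.43 (adjusted p = 0.00674, limma).

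Of 10 genes tested for serine transport and use, 5 were lower and 3 higher (median −0.25), against 32.6% and 20.4% of all tested genes. The neutral amino acid transporters Slc1a5 and Slc1a4 changed most. Slc1a5 went from a median of 75.0 to 22.6 FPKM (log2 fold change −1.72 ± 0.14, adjusted p = 1.43e-06, limma) and Slc1a4 from 29.8 to 11.6 FPKM (−1.35 ± 0.10, adjusted p = 1.19e-06, limma), both without overlap. The mitochondrial serine carrier Sfxn1 fell by 0.30 (adjusted p = 0.00458, limma). Sdsl, a serine dehydratase relative, rose by 0.98 (adjusted p = 0.000313, limma), and Sptlc1 and Sptlc2, which take serine into sphingolipids and were named after their values were seen, rose by 0.17 and 0.41.

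**Figure D5:**
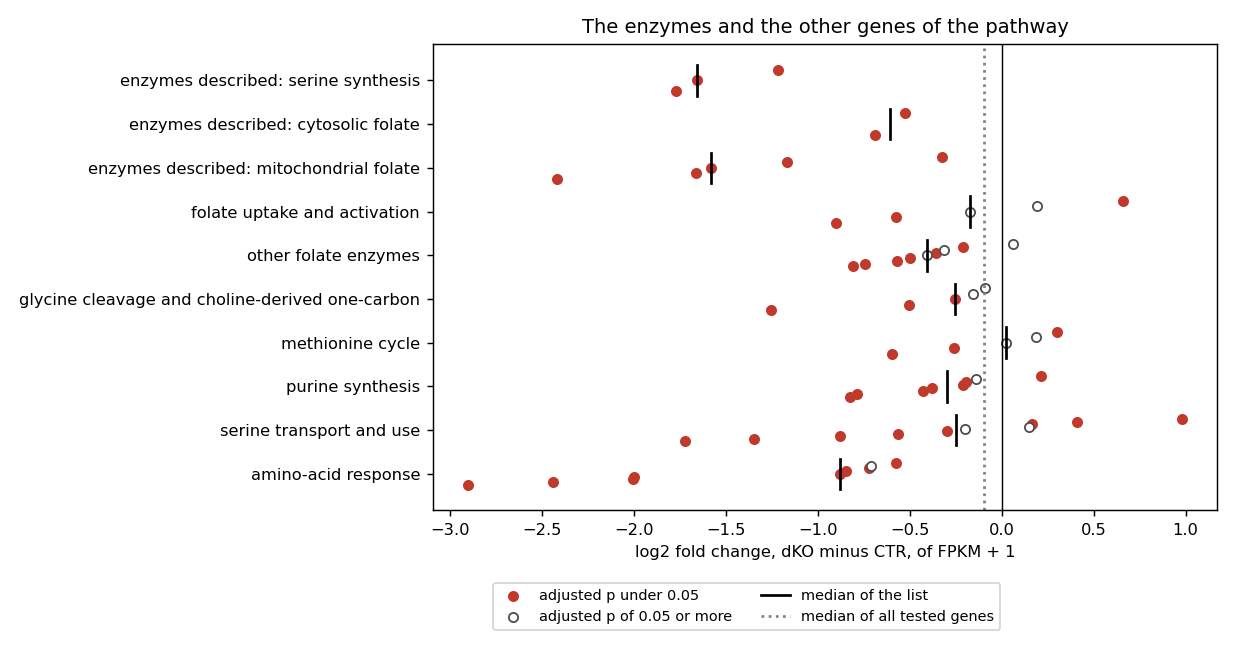
Log2 fold change (dKO minus CTR, of FPKM + 1) of every tested gene of the 3 groups of enzymes, of the 6 lists of other pathway genes and of the amino-acid response list; filled points have an adjusted p under 0.05, bars are list medians and the dotted line is the median of all tested genes. The serine synthesis and mitochondrial groups have medians of −1.66 and −1.58, and the 6 other pathway lists lie between −0.41 and 0.02.

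The transcription factor ATF4 is known to raise serine synthesis and mitochondrial folate genes when amino acids are short, and 9 genes of this response, Atf4 itself included, were counted as a list of their own. Of these 8 were lower in dKO, against 32.6% of all tested genes, and 0 higher (median −0.88), with Ddit3, named after its values were seen, at −0.71 (adjusted p = 0.0749, limma). Atf4 itself went from a median of 327 to 164 FPKM (log2 fold change −0.85 ± 0.12, adjusted p = 0.000124, limma), Asns from 150 to 34.6 FPKM (−2.0) and Cth from 54.7 to 5.51 FPKM (−2.90). Trib3 and Chac1 fell by 2.44 and 2.01. Of the other factors reported to act on these enzymes, Nfe2l2 fell by 0.70 (adjusted p = 0.000337, limma) and Myc by 0.45 (adjusted p = 0.0159, limma), and Mycn was too low to be tested.

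The genes whose levels followed that of Phgdh most closely were sought among all tested genes, as a description over 12 libraries that share the 2 groups. The highest Pearson correlations of log2(FPKM + 1) were those of Phf10 (0.992), Mars1 (0.991), Aldh18a1 (0.991), Hnrnpa2b1 (0.991) and Psat1 (0.989), against a median of 0.274 over 12466 genes. Shmt2 (0.989), Mthfd2 (0.988) and Psph (0.984) were 6th, 9th and 14th, and Asns, at 0.983, 16th. After the group means were subtracted, which leaves the variation among libraries of one group, the closest included Golt1b (0.934), Shmt2 (0.926), Phf10 (0.925) and Morf4l2 (0.924), against a median of 0.0164. On that measure Psat1 was at 0.882, Mthfd2 at 0.871, Psph at 0.852, Mthfd1l at 0.796 and Shmt1 at 0.778. Mthfd1 (0.572) and Aldh1l2 (0.471) followed Phgdh less closely, and Mthfd2l (−0.0203) did not. The lower place of CTR replicate 4 in 9 of the 10 genes is part of these values.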

How the data were processed

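RNA of MLECs was sequenced in 12 libraries, 6 CTR and 6 dKO, grouped by the sample labels. By their published methods, the authors used Trimmomatic for trimming, STAR for alignment to mm39 and sambamba to keep uniquely aligned reads. These reads went through alignment once more. Bowtie2 2.2.3, HISAT2 2.1.0 and TopHat2 are also recorded as upstream tools, and which aligner lay behind the deposited FPKM is not settled here. The authors' own calls came from DESeq2. They deposited FPKM for 28689 genes; the counting program, annotation and strand setting are not given in the sources used here. Of the genes, 27706 (96.6%) were matched by Ensembl identifier to GENCODE M39 (GRCm39).

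Whole fragment numbers were recovered from the deposited FPKM values within 0.001 fragment for 28689 genes (100%), with library totals between 15523054 and 17938286; over 2 kb of gene, 0.0279 to 0.0322 FPKM stood for 1 fragment. These fragments gave depths and an alternative fit by limma-voom, which called 6609 genes. The 12467 genes that reached 1 FPKM in 6 or more libraries entered limma 3.58.1 in R 4.3.3 on log2(FPKM + 1), with a trended eBayes and no block, adjusted by Benjamini-Hochberg. A fold change on this scale understates that of low genes. Ratios were tested by exact two-sided permutation over all assignments of 6 libraries to each group. Named genes were all 10 enzymes, the 3 genes of each other list with the largest change among those past the test, a fixed set of pathway genes, and the 5 genes most correlated with Phgdh. A few genes that this rule names are not reported here. The enzymes and the gene lists were chosen with earlier results of these data known. Near-identical transcripts were sought with BLAST 2.17.0, at 95% identity over 150 bases. On simulated data with 12467 genes, the limma step called 97 of 100 genes changed by 1 and 99 of 100 changed by 2 on the log2 scale, and 16 of 12267 unchanged genes. Python 3.11.15 with SciPy and Matplotlib was used for the other steps. The alternatives tried were other pseudocounts, filters, scalings and variance estimates, limma-voom, a block on replicate numbers and the omission of 1 library at a time.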

Additional observations from a re-analysis of the deposited data

Results flagged for a closer look

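Among 26 groups of 6 values (10 enzymes and 3 ratios in 2 groups), 2 held a library far from the others by Dixon's criterion, where chance alone would give about 1.3. Both were dKO replicate 1: Shmt1 was at 3.63 FPKM there and between 1.78 and 2.30 in the other dKO libraries, and Mthfd1 was at 15.0 FPKM there and between 7.50 and 10.2 in the others. These are the cytosolic enzymes of the set, and genes outside the 10 were not screened. Among those genes, dKO replicate 1 was for example the highest dKO library for Gcsh and Atic and the lowest for Sardh and Slc1a5. Whether the high values are particular to cytosolic enzymes was not tested. Without dKO replicate 1 the log2 fold changes were −0.63 for Shmt1 (adjusted p = 0.0141, limma) and −0.80 for Mthfd1 (adjusted p = 0.000236, limma). dKO replicate 1 had the fewest fragments of the 12 libraries, 15523054, and the highest sum of proliferation genes in its group, 157 FPKM. The part of either in the 2 values was not tested.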

How the results depend on the processing

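Of the 10 enzymes, 9 kept their direction and an adjusted p under 0.05 in every alternative in which they were tested; the number past both thresholds was 5, or 4 under median-of-ratios scaling and without CTR replicate 6, where Mthfd2 fell short of the fold threshold. Mthfd2l and Shmt1 were not tested under the filter at 5 FPKM. The adjusted p of Shmt1 missed the threshold without a filter (log2 fold change −0.52, adjusted p = 0.0772) and under median-of-ratios scaling (−0.46, 0.0606) and quantile normalization (−0.46, 0.0625); without single libraries its fold change ranged from −0.68 to −0.44. The cause was not tested. The whole table had 6614 calls, 4222 under the filter at 5 FPKM, which tests fewer genes. The 247 genes past both thresholds became 486 and 525 with pseudocounts of 0.1 and 0.01, 387 after rescaling to TPM and 516 by limma-voom. With the replicate number as a block, 10 enzymes were lower, 5 of them past both thresholds, 6955 genes of the table were called, and the exact sign-flip test over same-numbered libraries gave p = 0.0312 for each ratio, the smallest it allows. The numbers do not pair the libraries: deviations of same-numbered libraries correlated between −0.11 and 0.57, and 2 of 6 matched their own number best. Depth limits Mthfd2l (86 to 178 fragments) and Shmt1 (118 to 352) most.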
